A study of Mus musculus with 18 samples.

Results

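The flavin monooxygenases are a small family of enzymes of the endoplasmic reticulum that add 1 oxygen atom to soft nitrogen and sulphur atoms, using FAD as their cofactor and NADPH as their source of electrons. Trimethylamine, which gut bacteria release from choline and carnitine, reaches the liver through the portal vein and is turned there into trimethylamine N-oxide by this family. Fmo1 is one of the members able to carry out this oxidation, while Fmo5 prefers carbonyl compounds. The genes described here are Fmo1, Fmo2, Fmo4 and Fmo5, taken by their symbols: 4 of the 19057 rows of an RNA-seq table of mouse liver. All 4 were found and all 4 passed the filter on low values.

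Liver RNA from 18 ICR mice aged 10 weeks was sequenced, 3 mice in each of 6 groups. Con mice received saline. STZ mice received 1 dose of streptozotocin, a toxin of pancreatic beta cells that gives a model of type 1 diabetes. A10-FMT mice received streptozotocin and then, by mouth, pooled small-intestinal microbiota of donor mice dosed with alginate oligosaccharide (AOS) at 10 mg/kg, and Con-FMT mice received streptozotocin and pooled microbiota of control donors. The labels describe the AOS group as given AOS at 10 mg/kg and the STZ+AOS group as given streptozotocin together with AOS at 10 mg/kg; the course of that dosing is not given in the sources used here. The mice of the first 4 groups were male by the study's methods. Because the donor material was pooled, the mice of an FMT group shared 1 source of microbiota.

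Values are RPKM, read numbers divided by gene length and by library depth, so levels of different genes can be set side by side. Changes are differences of log2(RPKM + 1), which understate the change of low genes, with a standard error (SE) and an adjusted p from limma. Genes with an adjusted p under 0.05 are named as called. The table gives no read counts, and the steps between low values of 54 genes gave relative depths from 0.936 to 1.08 over the libraries. Only genes whose lowest values lay close together over the libraries entered this estimate. It could therefore not show large differences in depth, and the narrow range does not show that depths were equal. STZ mouse 3 stood apart from the other STZ mice: its distance from the Con mean over all genes on the log2 scale was 53.7, against 90.6 for STZ mouse 1 and 89.1 for STZ mouse 2. The hepatocyte markers summed to 37165 to 56949 RPKM in every library. Of the cell types in which Fmo genes are also known, the adipocyte markers never summed above 0.16 RPKM and the lung epithelium markers never above 1.17 RPKM. A lower level in whole liver can come from fewer cells of a type or from less RNA per cell, and these cannot be told apart here.

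Fmo1, Fmo2 and Fmo4 lie side by side on the minus strand of chromosome 1 in GRCm38 (GENCODE M21). Fmo4 spans chr1:162793188-162813972, Fmo1 spans chr1:162829561-162866610 and Fmo2 spans chr1:162874317-162898726, with gaps of 15.6 kb and 7.71 kb between them. Fmo5 lies apart on the plus strand at chr3:97628804-97655282. No stretch of 35 bases in the transcripts of the 4 genes occurred in the transcripts of another Fmo gene, so reads of that length without mismatches could be told apart between family members.

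The set of RefSeq starts used here (GRCm38.p6) held 3 of the 4 genes and had no entry for Fmo1. The sequences before both starts of Fmo2 are shown because Fmo2 had the largest fold of the 4 between groups. The capitals in the second line mark GTAAACA, the reverse complement of the forkhead motif TGTTTAC, and AGGTCA, a site type of nuclear receptors. Both run 5′ to 3′ on the minus strand, and the stretches were chosen after the search. The second stretch lies before a RefSeq start. Of the 250 bases before that start, 227 lie in exons of Fmo2 transcripts in GENCODE M21. Whether every base of the printed stretch is among them was not checked.
Fmo2 first start, chr1:162898759-162899008: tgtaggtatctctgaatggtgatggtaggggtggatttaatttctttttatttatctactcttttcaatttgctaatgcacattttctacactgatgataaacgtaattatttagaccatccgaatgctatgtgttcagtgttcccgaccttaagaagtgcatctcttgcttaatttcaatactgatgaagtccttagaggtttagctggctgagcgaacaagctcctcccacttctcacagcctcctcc
Fmo2 second start, chr1:162898494-162898523: ttGTAAACAcgtttacaatgaAGGTCAtat

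The search covered 8 motifs on both strands in the 250 bases before each start. They were the forkhead motif and the nuclear receptor site named above, the TATA box written TATAAA, the CCAAT box, the HNF1 site written GTTAAT, the STAT5 site written TTCNNNGAA, the steroid receptor site written TGTTCT, and the E-box written CACGTG. No searched motif holds another. None occurred before the first Fmo2 start, and 3 of the 8 occurred before the second. TGTTTAC occurs in 3.17% and AGGTCA in 14.0% of the 32851 promoters of the table. A match is a description of the letters only, and a window without a match says nothing about a factor.

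Fmo1 oxidises a wide range of nitrogen- and sulphur-containing compounds, trimethylamine among them, and has also been linked to the making of taurine from hypotaurine. It stood at 78.1, 121 and 101 RPKM in Con mice 1, 2 and 3, and at 229.9, 208 and 179.9 RPKM in the STZ mice. Every STZ mouse lay above every Con mouse, and the group means were 99.9 ± 21.5 and 206 ± 25.04 RPKM (SD, n = 3). The log2 change of Fmo1 was 1.05 (SE 0.20, adjusted p = 0.00298).

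Fmo2 is best known as the lung form of the family. It was low in Con liver, at 1.41, 1.25 and 1.29 RPKM, and reached 24.7, 28.8 and 4.69 RPKM in the STZ mice. The groups did not overlap, but STZ mouse 3 lay far below the other STZ mice, and the SD of the STZ group (12.9 RPKM) was large beside its mean (19.4 RPKM). The log2 change of Fmo2 was 2.82 (SE 0.56, adjusted p = 0.0035), and it was 3.58 with STZ mouse 3 left out. Counting error is widest here: the lowest Fmo2 value stands for about 42.5 reads.

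Fmo4 is a minor form whose substrates are little known. Its level was 3.74, 6.77 and 5.39 RPKM in the Con mice and 17.3, 15.7 and 5.57 RPKM in the STZ mice. STZ mouse 3 fell inside the Con range, so these groups overlapped. The log2 change of Fmo4 was 1.03 (SE 0.35, adjusted p = 0.0356). That call was lost without STZ mouse 1 (0.76, adjusted p = 0.126), without STZ mouse 2 (0.83, 0.131), without Con mouse 1 (0.84, 0.128) and without Con mouse 3 (1.06, 0.0761).

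Fmo5 can place oxygen next to a carbonyl group, the Baeyer-Villiger reaction, and is an abundant form in liver. It was the highest of the 4 genes in every library, at 226, 207 and 221 RPKM in the Con mice and 308, 379 and 319 RPKM in the STZ mice. The groups did not overlap, and the log2 change of Fmo5 was 0.62 (SE 0.15, adjusted p = 0.00983), the smallest of the 4.

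Between STZ and Con, then, 4 of 4 genes were called higher, against 33.0% of the 10602 genes tested, and 3 of 4 had groups that did not overlap with STZ above, against 40.8% of all genes. The RPKM of most genes moved upward in this comparison: over all genes the log2 change had a median of 0.21, and dividing each library by its median ratio took that median to -0.007. Relative to that median, Fmo1 was 0.84, Fmo2 2.61, Fmo4 0.82 and Fmo5 0.40 higher on the log2 scale. After the median-ratio scaling Fmo1 and Fmo2 stayed called, while Fmo4 (log2 change 0.80, adjusted p = 0.0815) and Fmo5 (0.35, adjusted p = 0.14) did not, and all 4 stayed higher. Of the 10602 genes 2893 were then called, 51.4% of them higher.

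**Figure D1:**
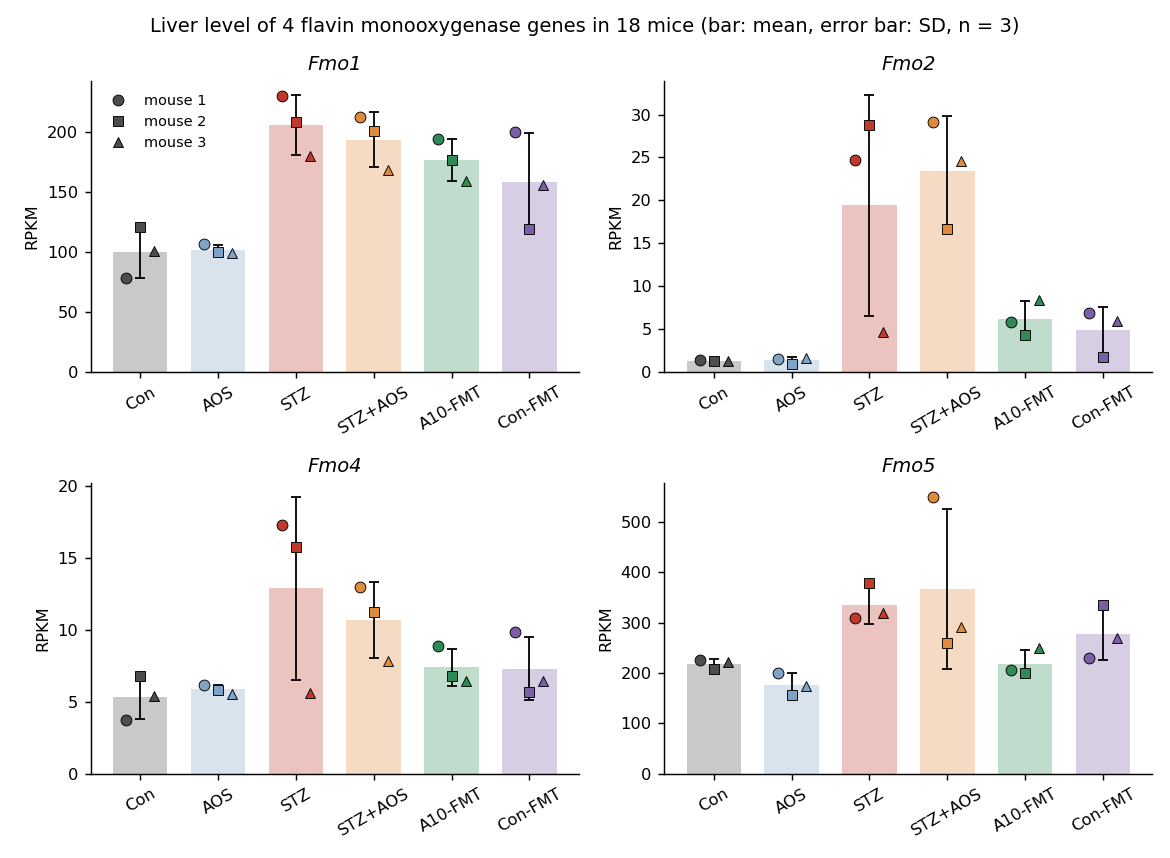
RPKM (vertical axis, from 0) of Fmo1, Fmo2, Fmo4 and Fmo5 in the 6 groups; bars are group means, error bars the SD over 3 mice, and each mark is a mouse. The means of Fmo1, Fmo2 and Fmo4 are higher in every group given streptozotocin than in Con and AOS. The Fmo5 mean of A10-FMT (218.6 RPKM) is level with that of Con (217.8 RPKM). For Fmo2 and Fmo4 STZ mouse 3 lies far below the other STZ mice.

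Whether transplanted microbiota changed the diabetic liver is asked by comparing each FMT group with STZ. In A10-FMT, Fmo1 stood at 194, 176 and 159 RPKM, Fmo2 at 5.79, 4.28 and 8.42 RPKM, and Fmo4 at 8.84, 6.79 and 6.46 RPKM. Fmo5 stood at 206, 199.7 and 251 RPKM, with every A10-FMT mouse below every STZ mouse. Levels of the other 3 genes overlapped between A10-FMT and STZ.

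By limma, 0 of 4 genes were called between A10-FMT and STZ, where 0.226% of all genes were called, and 2 of 4 had an unadjusted p under 0.05, against 20.9% of all genes. The log2 change of Fmo5 was -0.62 (SE 0.15, adjusted p = 0.0792), with non-overlap in this direction found in 13.9% of all genes. For Fmo2 the change was -1.23 (95% interval -2.46 to -0.003, adjusted p = 0.239), for Fmo4 -0.60 (-1.36 to 0.15, adjusted p = 0.339) and for Fmo1 -0.22 (-0.66 to 0.22, adjusted p = 0.562). Leaving out STZ mouse 3 changed this result: Fmo2 (-1.99, adjusted p = 0.0108), Fmo4 (-1.08, adjusted p = 0.0164) and Fmo5 (-0.65, adjusted p = 0.0311) were then called lower, and the number of all genes called rose from 24 to 1347.

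In Con-FMT, Fmo1 stood at 200.2, 119 and 156 RPKM, Fmo2 at 6.90, 1.71 and 5.87 RPKM, and Fmo4 at 9.80, 5.66 and 6.40 RPKM. Fmo5 stood at 230.4, 336 and 269 RPKM. All 4 genes overlapped with STZ, and Con-FMT mouse 2 was the lowest of its group for Fmo1, Fmo2 and Fmo4 but the highest for Fmo5.

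Between Con-FMT and STZ, limma called 0 of 4 genes, where 0.00943% of all genes were called, and 1 of 4 had an unadjusted p under 0.05, against 20.1% of all genes. Non-overlap was found in 0 of 4, against 17.7% of all genes. The changes were -0.40 for Fmo1 (adjusted p = 0.285), -1.63 for Fmo2 (0.15), -0.64 for Fmo4 (0.320) and -0.28 for Fmo5 (0.324). Without STZ mouse 3, Fmo2 (-2.39, adjusted p = 0.004) and Fmo4 (-1.11, adjusted p = 0.0128) were called lower, and the number of all genes called rose from 1 to 1640. Both FMT comparisons share the STZ mice.

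**Figure D2:**
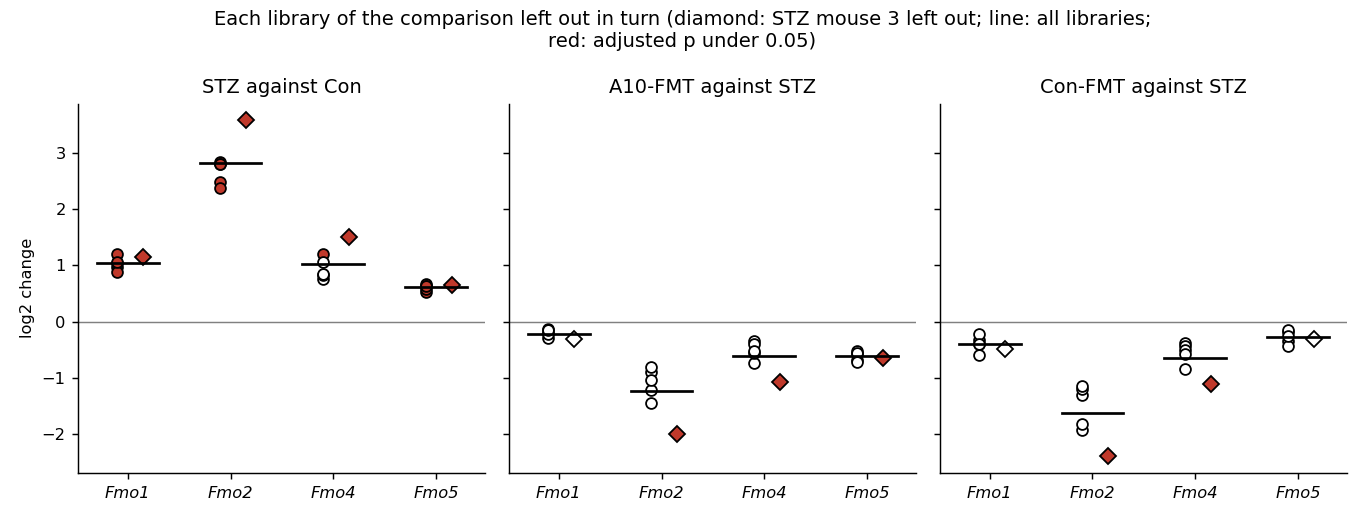
Log2 change (vertical axis) of each gene with each library of the comparison left out in turn, for STZ against Con, A10-FMT against STZ and Con-FMT against STZ; lines give the value with all libraries, diamonds the value without STZ mouse 3, and red marks an adjusted p under 0.05. Fmo2 and Fmo4 are called lower in both FMT comparisons without STZ mouse 3 and under no other omission.

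Set against each other, the FMT groups differed for none of the 4 genes by limma, as for 0.00% of all genes. The closest was Fmo5, lower in A10-FMT by 0.34 on the log2 scale with an unadjusted p of 0.0483, the only one of the 4 under 0.05 (2.86% of all genes), and an adjusted p of 0.999. The groups overlapped for all 4 genes, while 8.92% of all genes did not overlap. Intervals for the difference between A10-FMT and Con-FMT ran from -0.26 to 0.62 for Fmo1, from -0.83 to 1.63 for Fmo2, from -0.72 to 0.79 for Fmo4 and from -0.67 to -0.003 for Fmo5.

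Compared with Con, Fmo1 was called higher in both FMT groups. The change in A10-FMT was 0.83 (SE 0.20, adjusted p = 0.0185), with groups that did not overlap, and the call was lost without A10-FMT mouse 1 (0.76, adjusted p = 0.0675), Con mouse 1 (0.67, 0.0795) or Con mouse 3 (0.85, 0.0566). In Con-FMT the change of Fmo1 was 0.65 (SE 0.20, adjusted p = 0.0434), its lowest mouse lay inside the Con range, and the call was lost without Con-FMT mouse 1 (0.47, 0.166), Con-FMT mouse 3 (0.65, 0.0964), Con mouse 1 (0.49, 0.165) or Con mouse 3 (0.67, 0.1003). Thus 1 of 4 genes was called higher in each, against 15.9% of all genes for A10-FMT and 17.5% for Con-FMT.

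Fmo2 lay above every Con mouse in both FMT groups without being called, with changes of 1.59 in A10-FMT (adjusted p = 0.0688) and 1.19 in Con-FMT (adjusted p = 0.148). Fmo5 was level with Con in A10-FMT (change -0.001, 95% interval -0.34 to 0.33), whereas in Con-FMT every mouse lay above Con (0.34, adjusted p = 0.135). Non-overlap with the FMT group above was thus seen for 2 of 4 genes in each, against 41.7% of all genes for A10-FMT and 40.7% for Con-FMT. For Fmo4 the changes were 0.43 (adjusted p = 0.399) and 0.39 (0.428), and the groups overlapped. Over all genes the median was 0.16 and 0.19 in these comparisons. After median-ratio scaling Fmo1 stayed called in A10-FMT but not in Con-FMT (0.42, adjusted p = 0.138). Fmo5 then overlapped between Con-FMT (209, 342 and 263 in mice 1, 2 and 3) and Con (270, 225 and 247).

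AOS alone was compared with Con in mice without streptozotocin. Fmo1 stood at 106, 99.7 and 98.8 RPKM in the AOS mice, Fmo2 at 1.53, 0.96 and 1.56 RPKM, and Fmo4 at 6.18, 5.80 and 5.55 RPKM. Fmo5 stood at 201, 156 and 174 RPKM, below every Con mouse. By limma 0 of 4 genes were called, where 0.00924% of all genes were called, and 0 of 4 had an unadjusted p under 0.05, against 7.22% of all genes. The Fmo5 change was -0.30 (95% interval -0.78 to 0.17, adjusted p = 0.816), and non-overlap with AOS below was found for 1 of 4 genes, against 5.24% of all genes. Intervals were -0.34 to 0.43 for Fmo1, -1.05 to 1.07 for Fmo2 and -0.52 to 0.81 for Fmo4. All 4 intervals use a spread pooled over all 6 groups. For Fmo2 it includes the wide spread of the STZ mice, and for Fmo5 that of the STZ+AOS mice (SD 159.7 RPKM). Under other settings the adjusted p of Fmo5 from limma ran from 0.22 to 0.977.

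Mice given streptozotocin and AOS together held Fmo1 at 212, 201 and 168 RPKM, Fmo2 at 29.1, 16.6 and 24.6 RPKM, and Fmo4 at 13.0, 11.2 and 7.83 RPKM. Fmo5 stood at 551, 259.9 and 291 RPKM, with STZ+AOS mouse 1 far above the others. For all 4 genes these mice overlapped with STZ, while 5.13% of all genes did not. Limma called 0 of 4 between STZ+AOS and STZ, as 0.00% of all genes, and 0 of 4 had an unadjusted p under 0.05, against 6.07% of all genes. The largest of the 4 differences was that of Fmo2, 0.55 (95% interval -0.51 to 1.61, adjusted p = 0.842), and it was -0.21 without STZ mouse 3.

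The streptozotocin difference seen on the AOS background used other mice than that of STZ against Con. Between STZ+AOS and AOS all 4 genes lay higher without overlap, against 40.5% of all genes, and 3 of 4 were called higher, against 31.8%. The changes were 0.92 for Fmo1 (SE 0.18, adjusted p = 0.00172), 3.35 for Fmo2 (SE 0.50, adjusted p = 0.000343) and 0.97 for Fmo5 (SE 0.22, adjusted p = 0.00407). Fmo4 was 0.74 higher and not called (95% interval 0.08 to 1.41, adjusted p = 0.0725). The Fmo5 change was 0.64 without STZ+AOS mouse 1 and was still called (adjusted p = 0.00963). Relative to the median of all genes (0.21), the differences were 0.71 for Fmo1, 3.14 for Fmo2, 0.53 for Fmo4 and 0.76 for Fmo5.

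Whether the streptozotocin difference depended on AOS was tested as a difference of differences. By limma 0 of 4 genes were called, as 0.00% of all genes, and 0 of 4 had an unadjusted p under 0.05, against 5.40% of all genes. The estimates with AOS minus without AOS were -0.13 for Fmo1 (95% interval -0.68 to 0.41), 0.54 for Fmo2 (-0.96 to 2.03), -0.29 for Fmo4 (-1.23 to 0.66) and 0.36 for Fmo5 (-0.31 to 1.03). These intervals are wide beside the changes themselves.

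**Figure D3:**
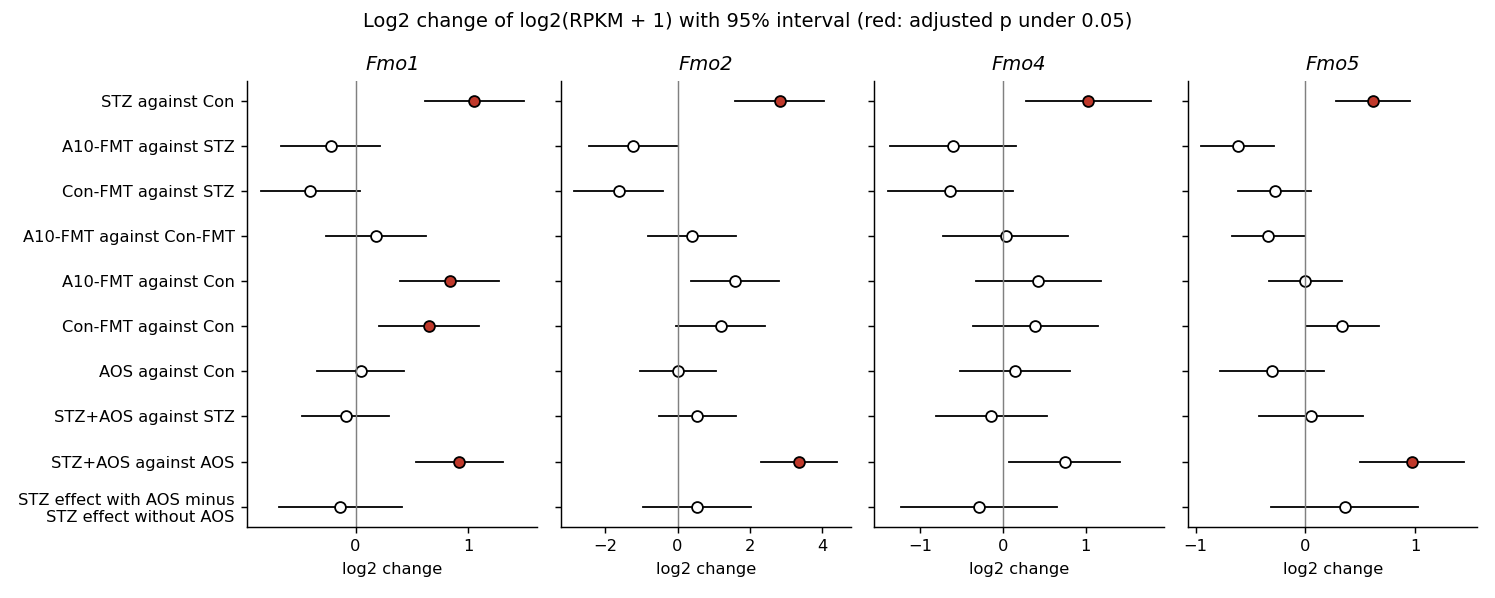
Log2 change with its 95% interval (horizontal axis, a scale of its own for each gene) for Fmo1, Fmo2, Fmo4 and Fmo5 in the 10 comparisons; red marks an adjusted p under 0.05. All 4 genes are red for STZ against Con and 3 for STZ+AOS against AOS, while no gene is red in the comparisons of an FMT group or STZ+AOS with STZ.

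By group mean, the order of the levels from highest was STZ, STZ+AOS, A10-FMT, Con-FMT, AOS and Con for Fmo1 and Fmo4. For Fmo2 it was STZ+AOS, STZ, A10-FMT, Con-FMT, AOS and Con, and for Fmo5 STZ+AOS, STZ, Con-FMT, A10-FMT, Con and AOS. Most neighbours in these orders overlapped over their mice. Those that did not were Con-FMT and AOS for Fmo1 and Fmo2, and Con and AOS for Fmo5. After median-ratio scaling Con ranked above AOS for Fmo1 and Fmo2, and above A10-FMT for Fmo5. Fmo5 made up 49.6% to 73.0% of the summed RPKM of the 4 genes in single mice, and Fmo1 25.3% to 46.8%. Fmo2 never exceeded 4.9996% and Fmo4 never exceeded 2.98%.

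Across the 18 libraries, which share their 6 groups, Pearson r of log2(RPKM + 1) was 0.86 between Fmo1 and Fmo2, 0.83 between Fmo1 and Fmo4, and 0.84 between Fmo2 and Fmo4, the 3 neighbours on chromosome 1. With Fmo5 it was 0.57 for Fmo1, 0.71 for Fmo2 and 0.55 for Fmo4. Taken as deviations from the group means, r was 0.47, 0.79 and 0.72 among the neighbours and -0.18, 0.14 and 0.05 with Fmo5. These are descriptions over libraries that differ by treatment. STZ mouse 3, far below the other STZ mice for Fmo2 and Fmo4, weighs on the 0.72 between these genes, and r without it was not computed.

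The genes whose log2 levels ran closest to each member over the 18 libraries, members left out, were found by Pearson r. Closest to Fmo1 were Cyp2b9 (r = 0.97), Slco1a4 (0.96), Slc16a5 (0.96) and Cyp2c37 (0.96), of which Cyp2b9 and Cyp2c37 are drug-metabolising cytochromes P450 and Slco1a4 is an organic anion transporter. Closest to Fmo2 were Mff (0.98), Cbr1 (0.98), Ctsd (0.98) and Sh3glb1 (0.97), with Cbr1 a carbonyl reductase and Ctsd the protease cathepsin D. Fmo4 ran closest to Rpl21 (0.95), Rps4x (0.95), Fau (0.94) and Rpl4 (0.94), all genes of ribosomal proteins. Fmo5 ran closest to Itga7 (0.90), Caskin2 (0.89), Serpina3n (0.88) and C3 (0.87), the last a complement factor made by hepatocytes. Cyp2b9 is also on the list of female-biased liver genes below, and averaged 4.99 ± 4.53 RPKM in Con and 277 ± 165 RPKM in STZ (SD, n = 3). By Spearman rho at most 1 of the 4 closest genes of a member stayed among its closest 4.

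Other genes of the pathway were read in lists that start from the substrate, and their counts stand beside the 33.0% of all genes called higher in STZ against Con. In that comparison 4087 of 10602 genes were called, 85.7% of them higher and the rest lower. After median-ratio scaling 2893 were called, 51.4% of them higher, so the scaled counts have another background. Between STZ and Con, 7 of 13 choline and betaine genes were called higher and 2 lower, with a median log2 change of 0.43 against 0.21 for all genes. Higher were Gnmt, a glycine methyltransferase (1.33, adjusted p = 0.00223), Chdh, which oxidises choline to betaine (0.80, adjusted p = 0.00249), and Sardh, the sarcosine dehydrogenase (1.07, adjusted p = 0.00268). Lower were Slc44a1, a choline transporter (-0.80, adjusted p = 0.000761), and Chka, a choline kinase, which went from 48.7 ± 4.29 to 22.1 ± 11.0 RPKM (-1.22, adjusted p = 0.00753). After median-ratio scaling the list held 5 higher and 2 lower. In A10-FMT against Con 6 were higher and 2 lower (5 and 2 after scaling), and in Con-FMT against Con 5 and 2 (4 and 2 after scaling). Before scaling, 15.9% of all genes were called higher in A10-FMT against Con and 17.5% in Con-FMT against Con. Chka was called lower in those comparisons too (-2.41 and -1.58) and in STZ+AOS against AOS (-1.17, adjusted p = 0.0239), and it was not called between an FMT group and STZ.

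Carnitine is the other dietary source of trimethylamine. Of 7 carnitine genes 4 were called higher and 0 lower in STZ against Con, with a median of 0.59, and 3 stayed called after median-ratio scaling. Slc22a5, the carnitine importer, changed by 1.19 (adjusted p = 0.00172), Slc25a20, the mitochondrial carnitine carrier, by 0.85 (adjusted p = 0.00288), Crat, carnitine acetyltransferase, by 1.34 (adjusted p = 0.00702), and Bbox1, which makes carnitine, by 0.59 (adjusted p = 0.00854, and 0.0583 after median-ratio scaling). Among 5 organic cation transporters 3 were called higher and 1 lower. Called higher were the efflux pump Abcb1a (1.46, adjusted p = 0.000625), the proton exchanger Slc47a1 (0.93, adjusted p = 0.00214) and Slc22a3 (0.97, adjusted p = 0.00447), and the efflux pump Abcg2 was called lower (-0.77, adjusted p = 0.035).

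Taurine synthesis and conjugation held 4 genes called higher and 1 lower of 6 tested, and 2 higher and 1 lower after median-ratio scaling. The lower one was Csad, which makes hypotaurine: its mean went from 139 ± 9.61 RPKM in Con to 14.6 ± 0.17 RPKM in STZ (SD, n = 3). The A10-FMT mice averaged 56.0 ± 6.37 RPKM, and the Con-FMT mice 28.2 ± 15.5 RPKM. Its log2 change was -3.17 in STZ against Con (adjusted p = 0.000274) and 1.86 in A10-FMT against STZ (adjusted p = 0.0475). Higher were Slc27a5, which prepares bile acids for conjugation (0.75), the taurine transporter Slc6a6 (0.86), the cysteine dioxygenase Cdo1 (0.77) and Ado (0.22). After median-ratio scaling Slc27a5 and Slc6a6 stayed called by limma. Cdo1 (0.50, adjusted p = 0.0771) and Ado (0.014, adjusted p = 0.917) did not. Among the tested genes of the pathway lists, Csad was the only one called between an FMT group and STZ. That call was lost without STZ mouse 2, as no gene was then called in A10-FMT against STZ.

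For the cofactors, 1 of 4 tested FAD and riboflavin genes was called higher in STZ, the folate and FAD carrier Slc25a32 (1.29, adjusted p = 0.000673). NADPH supply held 4 higher and 2 lower of 9, and 1 higher and 2 lower after median-ratio scaling. Nnt, the mitochondrial transhydrogenase, was higher (1.17, adjusted p = 0.000567), as was Mthfd1 of folate metabolism (0.56, adjusted p = 0.0179, and 0.0972 after median-ratio scaling). Me1, malic enzyme (-0.63, adjusted p = 0.0158), and Idh1, the cytosolic isocitrate dehydrogenase (-0.38, adjusted p = 0.0278), were lower. Of 4 microsomal electron transfer genes 2 were higher and 2 lower. Por, the reductase that passes electrons from NADPH to cytochromes P450, stood at 40.7 ± 2.999 RPKM in Con and 395 ± 188 RPKM in STZ and changed by 3.11 on the log2 scale (adjusted p = 0.000342). Cyb5a was called at 0.59 (adjusted p = 0.0365) and lost the call after median-ratio scaling (adjusted p = 0.16). Cyb5r3 (-0.35, adjusted p = 0.0341) and Cyb5b (-0.26, adjusted p = 0.0434) were the lower ones.

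Of 15 hepatocyte and hormone-response transcription factors 6 were called higher and 0 lower in STZ, and 5 higher after median-ratio scaling. Before that scaling the count was near the share of all genes called higher, 33.0%. Nfe2l2, a regulator of antioxidant genes, changed by 0.77 (adjusted p = 0.000831), Hnf4a by 0.75 (adjusted p = 0.00102), the pregnane X receptor Nr1i2 by 0.92 (adjusted p = 0.002) and Foxo1, a forkhead factor restrained by insulin, by 0.77 (adjusted p = 0.00325).

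Several Fmo genes differ between the sexes in mouse liver, and lists of sex-biased liver genes were read for that reason. Male-biased genes were lower in STZ: 8 of 10 were called lower and 0 higher, with a median of -4.52 and Elovl3 going from 226 ± 15.4 to 4.09 ± 6.87 RPKM. Female-biased genes were higher: 10 of 12 were called higher and 0 lower, with a median of 4.43 and Cyp2a4 going from 2.86 ± 2.42 to 469 ± 516 RPKM. Others with small adjusted p were C6 (-3.68), Mup20 (-6.98) and Hsd3b5 (-6.31) among the male-biased genes, and Cyp2b9 (5.71), Abcd2 (2.94) and Cyp17a1 (5.21) among the female-biased ones. In A10-FMT against Con, 3 of 10 male-biased genes were called lower and 7 of 12 female-biased genes higher, and in Con-FMT against Con 5 of 10 and 4 of 12. Calls over all genes fell too, from 4087 in STZ against Con to 1953 in A10-FMT against Con and 2059 in Con-FMT against Con. Called higher were 33.0%, 15.9% and 17.5% of all genes, in that order. After median-ratio scaling the male-biased counts were the same in all 3 comparisons with Con, and the female-biased count was 9 for STZ and 6 for A10-FMT but 1 for Con-FMT. Of all genes 2893, 1164 and 874 were then called. None of either list was called between an FMT group and STZ. Their part in the levels of the Fmo genes was not tested.

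**Figure D4:**
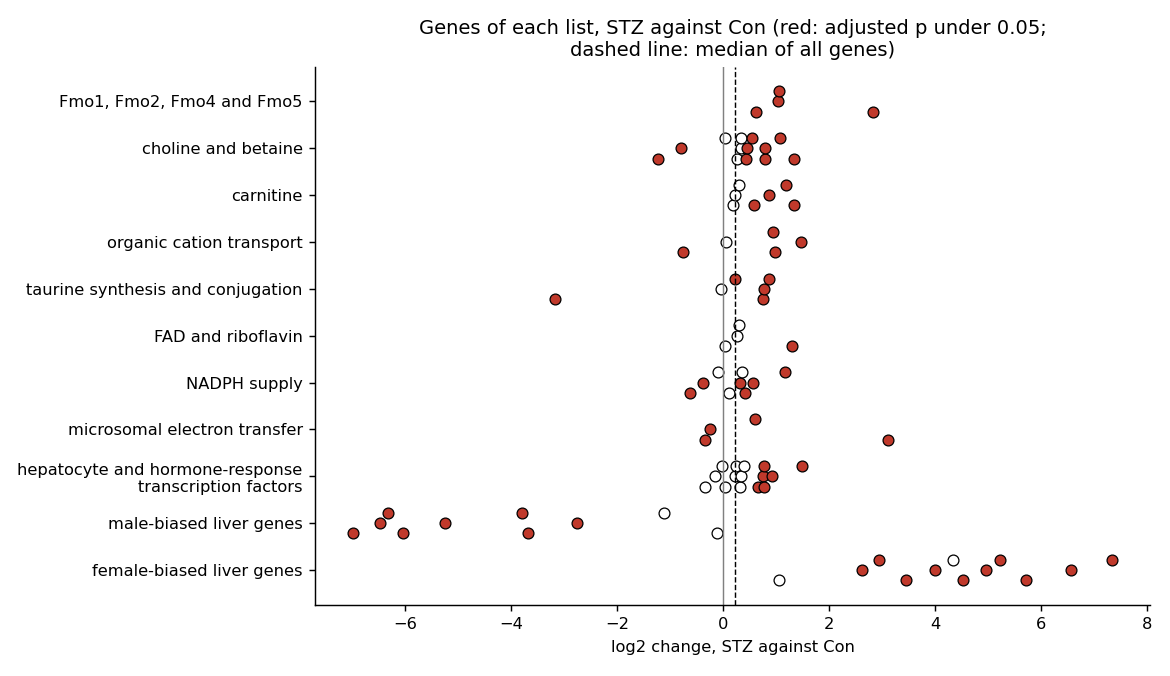
Log2 change between STZ and Con (horizontal axis) of each tested gene of the pathway lists, with Fmo1, Fmo2, Fmo4 and Fmo5 in the top row; red marks an adjusted p under 0.05 and the dashed line the median of all genes, 0.21. The male-biased list lies to the left of 0 and the female-biased list to the right, while the 4 Fmo genes lie between 0.62 and 2.82.

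Of the 7 hepatocyte markers 3 were called higher in STZ against Con (Cps1, Ass1 and Tat) and 3 lower (Serpina1a, Ttr and Apoa1), and markers of other liver cells moved too. Of 5 Kupffer cell markers 1 was called higher in STZ against Con, Marco, a scavenger receptor (2.79, adjusted p = 0.00936), and the list summed to 51.3 to 80.0 RPKM in Con and 80.9 to 182 RPKM in STZ. Of 5 stellate cell markers 1 was called higher, Dcn (0.72, adjusted p = 0.0178, and 0.0972 after median-ratio scaling), and the sums were 74.6 to 91.3 RPKM in Con and 113 to 144 RPKM in STZ. Of the 5 pancreatic acinar markers Cela1 alone could be tested, and it was called lower, from 35.9 ± 4.85 RPKM in Con to 5.69 ± 2.90 RPKM in STZ. It made up nearly all of the list's sum, as none of the other 4 passed 0.49 RPKM in a Con or STZ mouse. STZ+AOS mouse 3 stood apart, with Ctrb1 at 36.5, Prss2 at 7.74, Cpa1 at 3.31 and Cel at 2.44 RPKM. Cela1 in that mouse was 4.39 RPKM, beside 3.10 and 4.16 RPKM in STZ+AOS mice 1 and 2. It thus did not follow the other 4 acinar markers there. Without that mouse the changes between STZ+AOS and AOS were 1.02 for Fmo1, 3.30 for Fmo2, 0.93 for Fmo4 and 1.10 for Fmo5, and by limma the same 3 genes were called. Of the 5 sinusoidal endothelial markers 1, Kdr, was called higher, and their sums were 46.3 to 51.7 RPKM in Con and 50.7 to 63.7 RPKM in STZ, and those of the 4 cholangiocyte markers 21.1 to 38.9 and 19.9 to 40.7 RPKM. Of the 4 erythroid markers 1, Alas2, was called lower, and their sums ran from 279.7 to 9166 RPKM over all libraries, and the 3 lymphocyte markers in the table never summed above 1.82 RPKM. The part of these cell types in the Fmo levels was not tested.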

How the data were processed

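Liver RNA was sequenced on a HiSeq 2500. The RPKM values were deposited by the authors, 1 per gene and mouse, on mm10 (GRCm38). The methods name SOAPaligner 2.20 and the submitters' processing notes name Bowtie 0.12.2; which one made the table was not settled here. Log2(RPKM + 1) was fitted with limma 3.58.1 (R 4.3.3, trend) over genes of at least 1 RPKM in at least 3 libraries: Con, STZ, A10-FMT and Con-FMT together (12 libraries, 10602 genes), and all 18 libraries (10822 genes) for comparisons with an AOS group. P-values were adjusted by Benjamini-Hochberg over all genes and are two-sided. They rest on 1 spread per gene between mice, pooled over all groups of the fit and drawn toward that of genes of like level. A comparison therefore also carries the spread of groups outside it. The scripts were tested on simulated data.

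The 4 genes and the lists were chosen with earlier results of these data known. Named are the 4 genes, the 4 closest genes by Pearson r, and per list up to 4 called genes by adjusted p. Also named are list genes called in an FMT or AOS comparison. Ado and the marker genes were named after their values were seen. Whole read counts were not recovered: depth was estimated from genes whose low values showed steps, by a rule set after seeing values. The table holds 26 symbols that read as dates and 3 that occur more than once. Some genes that the naming rule would include are not reported here. Alternatives changed 1 setting at a time: scaling, pseudocount (0.1), filter, trend, groups in the fit, replicate block, and leaving out each library.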

Additional observations from a re-analysis of the deposited data

How the results depend on the processing

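Of 380 values under other settings 354 kept their direction and side of the threshold, 14 lost a call, 4 gained one and 8 changed sign. Fmo4 in STZ against Con lost its call under median-ratio scaling (0.80), median centring (0.79), quantile normalization (0.80), no filter and only the 2 groups (both 1.03), and Fmo5 under those scalings (0.35, 0.37 and 0.39). Fmo1 in Con-FMT against Con lost its call under those scalings (0.42, 0.45 and 0.37) and, at 0.65, with no filter, only the 2 groups or a replicate block. Fmo2 in A10-FMT against Con gained a call with a pseudocount of 0.1 (2.09), only the 2 groups and all 6 groups (both 1.59), as did Fmo4 in STZ+AOS against AOS with only those groups (0.74). In AOS against Con, Fmo1 (-0.0282, -0.0130 and -0.0519) and Fmo2 (-0.0357, -0.0479 and -0.0305) changed sign under the scalings, as did Fmo5 in STZ+AOS against STZ with centring (-0.0158) and Fmo1 in the difference of differences with quantile normalization (0.0471). The cause was not tested.

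With a replicate block, the mouse number as a factor, Fmo1 in Con-FMT against Con lost its call (0.65, adjusted p = 0.0683), and no other of the 40 calls or non-calls changed. The labels do not say that a number marks shared mice or batches. Deviations from the group means correlated above 0.1 in 16 of 45 same-numbered pairs and in 16 of 90 differently numbered pairs, with medians of 0.03 and -0.01, so not every same-numbered pair met the level set for pairing.

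Leaving out 1 library gave these ranges, with the values not listed moving by less than 1.5 times or given with their library in the report. STZ against Con: Fmo4 0.76 to 1.503. A10-FMT against STZ: Fmo1 -0.31 to -0.14, Fmo2 -1.99 to -0.80, Fmo4 -1.08 to -0.34, Fmo5 -0.72 to -0.53. Con-FMT against STZ: Fmo1 -0.58 to -0.21, Fmo2 -2.39 to -1.15, Fmo4 -1.11 to -0.37, Fmo5 -0.42 to -0.15. A10-FMT against Con-FMT: Fmo1 -0.00574 to 0.37, Fmo2 -0.0812 to 0.69, Fmo4 -0.11 to 0.24, Fmo5 -0.46 to -0.19. A10-FMT against Con: Fmo1 0.67 to 0.98, Fmo4 0.24 to 0.59, Fmo5 -0.10 to 0.0600. Con-FMT against Con: Fmo1 0.47 to 0.84, Fmo4 0.19 to 0.56, Fmo5 0.19 to 0.46. AOS against Con: Fmo1 -0.12 to 0.19, Fmo2 -0.0564 to 0.14, Fmo4 -0.0432 to 0.31. STZ+AOS against STZ: Fmo1 -0.18 to 0.0112, Fmo2 -0.21 to 0.98, Fmo4 -0.61 to 0.13, Fmo5 -0.28 to 0.26. Difference of differences: Fmo1 -0.28 to 0.0314, Fmo2 -0.22 to 0.97, Fmo4 -0.76 to -0.02, Fmo5 0.02 to 0.57. Over every alternative, omissions included, the genes called in the whole table ran from 2580 to 5017 for STZ against Con (4087 as reported), 0 to 1347 for A10-FMT against STZ (24), 0 to 1640 for Con-FMT against STZ (1), 577 to 3355 for A10-FMT against Con (1953), 600 to 2128 for Con-FMT against Con (2059), 2483 to 4091 for STZ+AOS against AOS (4102), 0 to 41 for AOS against Con (1), 0 to 6 for STZ+AOS against STZ (0) and 0 to 3 for the difference of differences (0). Median-ratio scaling took the share of calls that were higher from 85.7% to 51.4% in STZ against Con, from 86.6% to 55.1% in A10-FMT against Con, from 90.3% to 55.8% in Con-FMT against Con and from 83.9% to 49.9% in STZ+AOS against AOS. A filter of 1 RPKM in every library left no value for Fmo2 in comparisons with an AOS group.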
